A study of Homo sapiens with 36 samples.

Results

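SOX2, SOX9, ID4, GPM6A, PTPRZ1, SLC1A3, CHI3L1, NCAM1, CNTN1 and MAP2 are genes of glial and neural lineage whose RNA was measured in the protruding and the main parts of 6 human cancer cell lines. The 10 genes were chosen by name out of 19775 annotated genes, with earlier results of these data known. Every probe set annotated to one of them was used, 33 of 54593. A probe set is a group of short array probes that read one stretch of transcript, and its intensity is the brightness of the spots that bound labelled RNA. Levels were described in every line, and pseudopods were set against cell bodies where a probe set's mean cell body intensity in a line was 100 or more, which 19 of the 33 probe sets reached in at least 1 line.

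The 12 groups were the pseudopod (PS) and cell body (CB) fractions of U87, U251, HT1080, DU145, MDA231 and MDA435, each with 3 arrays, 36 in all. All cells were kept for 24 hours on a porous filter, and the material on its lower side (pseudopods) and upper side (cell bodies) was then scraped off. U87 and U251 come from glioblastomas, HT1080 comes from a fibrosarcoma, DU145 from a prostate tumour and MDA231 from a breast tumour. MDA435 was long listed as breast cancer and is now widely held to come from a melanoma. U87, U251 and HT1080 were grown in high glucose DMEM and the other 3 lines in RPMI-1640, both with serum, so both fractions of any line shared 1 medium. Between lines of different media, a difference in level cannot be told apart from an effect of the medium. No group carried a further treatment or genetic change, and each line is a long-cultured derivative of 1 tumour. The labels number the replicates without saying that they came from separate cultures, so p-values measure the spread between these arrays, which may be technical. In bulk fractions, fewer cells of a type and less RNA per cell cannot be told apart.

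SOX2 and SOX9 are transcription factors of neural stem cells and glial progenitors, and ID4 is an inhibitor of basic helix-loop-helix factors that delays differentiation. The radial glia and astrocytes that such factors maintain carry the receptor phosphatase PTPRZ1, which binds the anchored adhesion molecule CNTN1 and the secreted factor pleiotrophin, and the glutamate transporter SLC1A3. GPM6A is a membrane proteolipid of growing neurites, NCAM1 a homophilic adhesion molecule, CHI3L1 a secreted glycoprotein of reactive glia and mesenchymal tumours, and MAP2 a microtubule-associated protein of dendrites.

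Promoter windows of 250 bases before to 50 bases after an annotated start were taken from RefSeq, build GRCh38.p14, which held 16 windows for 8 of the 10 genes. The windows of the outermost start of 4 genes are shown because these genes differed widely between the glioblastoma lines: SOX2, GPM6A and PTPRZ1 were bright in U251 and near background in U87, and CHI3L1 was bright in U87. CNTN1 also differed widely, but its windows are not of its outermost start and are not shown. Capitals mark each E box (CANNTG, the letters bound by the factors that ID4 inhibits) and each TATA box (TATAAA), searched on both strands. The SOX2 window lies at chr3:181711675-181711974 on the plus strand, PTPRZ1 at chr7:121872911-121873210 on the plus strand, GPM6A at chr4:176002344-176002643 on the minus strand and CHI3L1 at chr1:203186655-203186954 on the minus strand.
SOX2: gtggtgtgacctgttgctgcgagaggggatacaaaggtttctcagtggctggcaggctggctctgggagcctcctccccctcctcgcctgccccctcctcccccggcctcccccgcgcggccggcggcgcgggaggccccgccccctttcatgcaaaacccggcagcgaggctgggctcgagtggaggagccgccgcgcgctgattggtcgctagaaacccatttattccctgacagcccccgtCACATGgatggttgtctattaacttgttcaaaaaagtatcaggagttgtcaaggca
GPM6A: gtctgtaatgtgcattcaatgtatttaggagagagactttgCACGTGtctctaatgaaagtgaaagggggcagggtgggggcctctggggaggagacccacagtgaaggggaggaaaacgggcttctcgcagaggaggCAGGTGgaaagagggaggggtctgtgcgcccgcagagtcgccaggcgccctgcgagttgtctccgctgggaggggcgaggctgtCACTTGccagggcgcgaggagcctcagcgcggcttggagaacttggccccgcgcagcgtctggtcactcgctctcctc
PTPRZ1: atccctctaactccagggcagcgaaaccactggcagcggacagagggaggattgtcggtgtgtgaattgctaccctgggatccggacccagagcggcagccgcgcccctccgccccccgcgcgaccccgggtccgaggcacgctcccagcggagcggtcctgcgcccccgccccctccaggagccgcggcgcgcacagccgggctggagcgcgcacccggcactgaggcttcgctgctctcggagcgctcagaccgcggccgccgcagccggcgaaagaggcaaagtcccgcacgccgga
CHI3L1: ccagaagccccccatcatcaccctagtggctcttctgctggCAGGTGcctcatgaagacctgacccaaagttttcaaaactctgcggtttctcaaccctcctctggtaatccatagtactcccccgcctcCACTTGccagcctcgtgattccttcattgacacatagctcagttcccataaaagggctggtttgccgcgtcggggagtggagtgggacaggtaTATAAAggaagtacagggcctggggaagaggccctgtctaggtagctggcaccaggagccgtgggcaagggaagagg
The CHI3L1 window held a TATA box that begins 27 bases before the start, and the other 3 windows held none. An E box began 6 bases before the start in SOX2, 209, 112 and 28 bases before it in GPM6A and 209 and 120 bases before it in CHI3L1, and PTPRZ1 had no such letters. Of all 35116 RefSeq windows, 11.5% held the TATA letters and 68.7% an E box. The letters CATTGT, a core bound by SOX factors, occur in 10.8% of all windows and in none of these 4. The GC share was 73.3% in PTPRZ1 with 38 CpG pairs, 63.3% with 20 in SOX2, 62.3% with 18 in GPM6A and 56.0% with 7 in CHI3L1, against medians of 58.7% and 14 over all windows. A match is a description of letters, and no binding was measured here.

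Some arrays differed from the others of their group, and several of the 10 genes moved with them. CDH1, the epithelial cadherin, read 8.2, 1777.5 and 2.2 in MDA231 cell bodies and 4.5, 13.7 and 1299.2 in its pseudopods. In MDA435 it read 32.8, 1044.1 and 2463.0 in cell bodies and 2072.7, 921.5 and 33.2 in pseudopods. The summed level of 8 epithelial markers in MDA435 ranged from 1430.4 to 11983.2 over cell bodies and from 1844.9 to 11662.4 over pseudopods, and in MDA231 from 6550.3 to 13005.1 and from 8100.1 to 13780.7. DU145 pseudopod replicate 1 and cell body replicate 3 stood apart in SOX9 and SLC1A3. In U87 pseudopod replicate 3, a sum of 5 mesenchymal markers was 9353.9, against 5792.5 and 3043.5 in the other 2 pseudopod arrays and 11162.8 to 15935.4 in cell bodies. In no array was another line the closest in the correlation over all probe sets. Counts below are therefore also given without these 7 arrays, a choice made after the data were seen, and the part of the marker differences in the results was not tested. Whether samples were mixed or exchanged within MDA231 or MDA435 was not tested either, and this doubt applies to every level and change given for those lines. In MDA231, SLC1A3 read 101.4 and 86.2 in the 2 arrays with much CDH1 and 13.6 to 30.7 in the other 4. CNTN1 read 18.3 and 13.7 in those 2 arrays and 53.6 to 87.2 in the other 4.

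The labelled origin of the lines was set against defining markers. GFAP, the astrocyte filament, had a cell body mean of 149.3 in U251 and 7.13 in U87, and the glial water channel AQP4 was too dim to test. Other genes of the astroglial list were bright in U87: GJA1 (4341 in U87 and 4286 in U251), CLU (1256 and 2930) and ALDOC (451.1 and 56.7). CLU and ALDOC were not particular to these lines. CLU had cell body means of 960.7 in HT1080 and 996.1 in DU145, and ALDOC was highest in HT1080 (550.3). S100B (1.17 in U87 and 29.6 in U251) and ALDH1L1 (13.5 and 25.1) were low in both lines, and ALDH1L1 was highest in HT1080 (224.1). The summed level of 6 melanocytic markers was 4388.3 to 7964.9 in MDA435 and 202.4 to 678.9 in the other 5 lines. S100B, MITF, SOX10 and TYR made up nearly all of the MDA435 sum, with cell body means of 2128, 1827, 1485 and 605. Replicates 1 to 3 of MDA435 summed to 7964.9, 5616.3 and 4663.8 in cell bodies and to 4388.3, 7271.0 and 7597.4 in pseudopods. These sums ran in the reverse order of CDH1. The pigment cell markers PMEL and MLANA were near background in MDA435 cell bodies, at 22.5 and 14.3, and PMEL was no higher there than in HT1080 (33.7), MDA231 (29.4) or DU145 (28.6). The blood markers PTPRC, CD14, CD3E and HBB together summed to between 68.7 and 215.5 in every array.

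Across the 44 combinations of probe set and line that reached the cell body minimum, 15 were lower in pseudopods, 0 were higher and 29 did not pass the test, with a median change of -0.28 on the log2 scale. The test was limma on log2(intensity + 16) with Benjamini-Hochberg adjustment over 35240 tested probe sets and a threshold of 0.05 on adjusted p. Each log2 change or fold below is a difference of such values, so that it is smaller than the true change where probe sets are dim. The counts of lower calls were 5 of 8 in U87, 5 of 16 in U251, 4 of 7 in HT1080, 0 of 3 in DU145, 0 of 3 in MDA231 and 1 of 7 in MDA435. In DU145, SLC1A3 (57.6, 41.0 and 291.4) and SOX9 (93.7, 81.7 and 245.9) reached the minimum only through cell body replicate 3. CNTN1, the remaining gene there, fell without overlap but did not pass the test (adjusted p = 0.0805). Over all probe sets that reached the same minimum, 19% were lower and 15.8% higher in U87, 15.6% and 7.86% in U251, and 19.3% and 17% in HT1080. Those shares were 5.96% and 2.01% in DU145, 8.98% and 1.99% in MDA231, and 14.6% and 4.08% in MDA435. The lower calls among the glial and neural probe sets thus made up a larger share than the background in U87, U251 and HT1080, and the 1 of 7 of MDA435 was near it. Several of these probe sets read 1 gene, so the shares do not count independent genes. The genes were also chosen with earlier results of these data known, so the shares describe these genes only. The calls came from NCAM1, CHI3L1 and SLC1A3 out of 5 genes in U87 and from NCAM1, PTPRZ1 and GPM6A out of 9 in U251. In HT1080 they came from NCAM1 and CHI3L1 out of 4 genes. Median changes over the background probe sets were 0.08 to 0.15 as deposited and 0.21 to 0.35 when the array medians were set equal. Without the 7 arrays, 18 of the 44 were lower and 0 higher.

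The lower calls fell in 5 genes whose products are membrane or secreted proteins: NCAM1 with 6 of 6, CHI3L1 with 4 of 4, PTPRZ1 with 2 of 2, GPM6A with 2 of 3 and SLC1A3 with 1 of 4. CNTN1, the remaining gene with a membrane-anchored product, had 0 of 4 called. For these 6 genes together 15 of 23 combinations were called lower and 20 had a negative sign, with a median of -1.40. CNTN1 had a negative sign in 1 of its 4 combinations, and the other 5 genes in all 19, a split made with the values seen. SOX2, SOX9, ID4 and MAP2, with nuclear or cytoskeletal products, had 0 of 21 called and a median of 0.06. Below the cell body minimum, 6 further combinations were called lower, 1 of them in a gene with a nuclear product: the third SOX2 probe set in U251 (38.2 to 13.2, -0.88, adjusted p = 0.000517, with overlapping arrays), CNTN1 in HT1080 on the brightest (47.6 to 16.4, -0.98, 0.0218) and the second probe set (-0.59, 0.0289), 2 dim NCAM1 probe sets and PTPRZ1 in HT1080. The grouping by product was made with the results known and describes these genes only. Its combinations are not independent, since several probe sets read 1 gene.

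**Figure D1:**
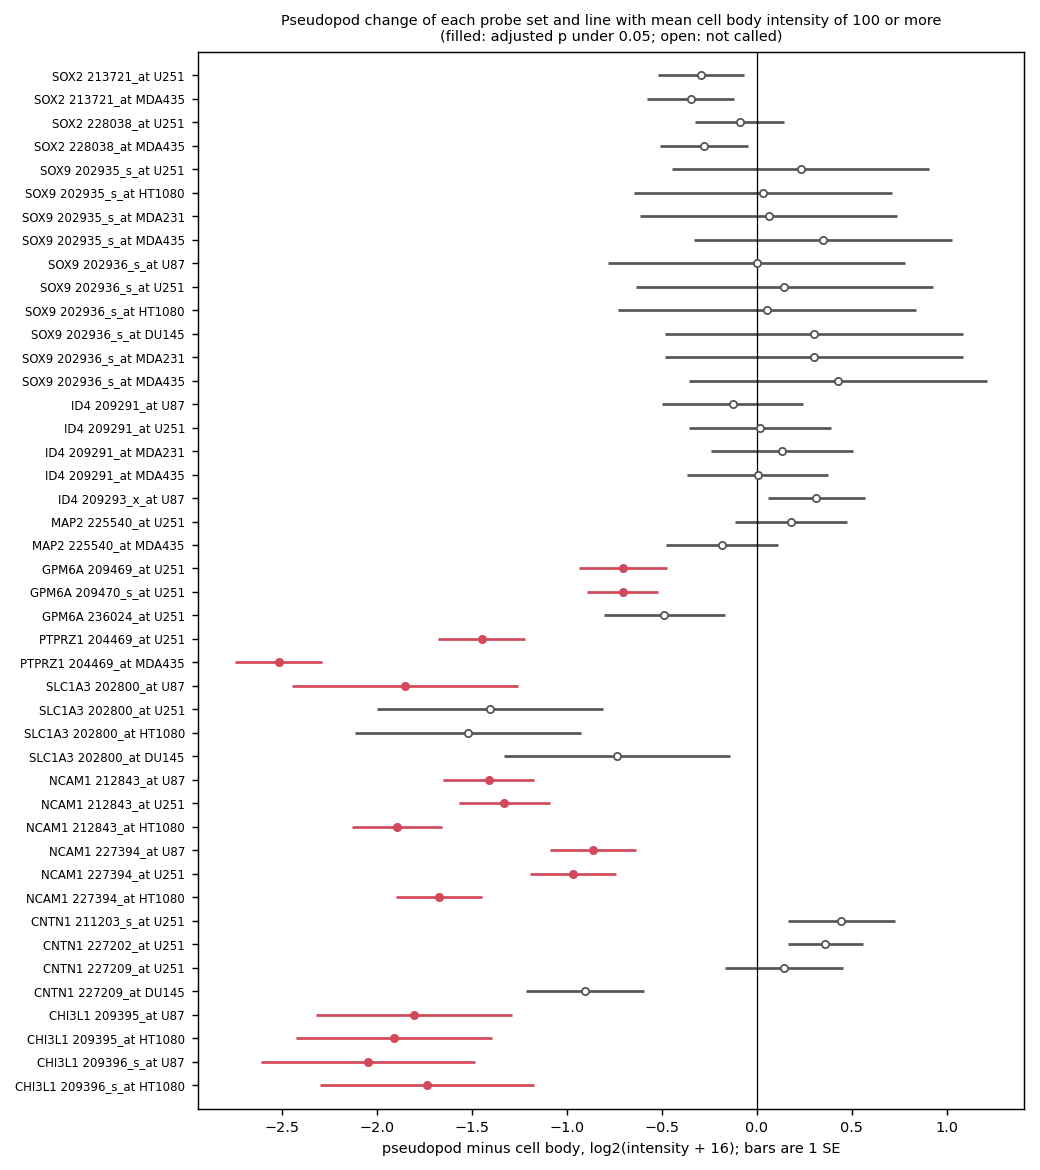
Pseudopod minus cell body change of each of the 44 combinations of probe set and line with a mean cell body intensity of 100 or more, in log2(intensity + 16), with bars of 1 SE; filled points passed an adjusted p of 0.05 and open points did not. All 15 filled points lie below 0, from -2.52 for PTPRZ1 in MDA435 to -0.70 for GPM6A in U251, and the points of SOX2, SOX9, ID4, MAP2 and CNTN1 are open.

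PTPRZ1, the receptor phosphatase, was read by 1 probe set and was present in U251 and MDA435. U251 cell bodies read 1296.4, 1318.2 and 1066.5 and U251 pseudopods 495.8, 377.5 and 448.5. MDA435 cell bodies read 783.5, 737.7 and 627.7 and MDA435 pseudopods 75.9, 83.4 and 211.1. Every pseudopod array lay below every cell body array in both lines, while the 24 arrays of the other 4 lines read 0.8 to 20.6. PTPRZ1 fell by 2.52 ± 0.23 (SE) in MDA435, 5.72-fold, with an adjusted p of 1.08e-07. In U251 it fell by 1.45 ± 0.23, 2.73-fold, with an adjusted p of 7.74e-05, which became 0.0624 with a pseudocount of 1. The change differed among the 6 lines (moderated F, adjusted p = 5.9e-05), of which U251 and MDA435 reached the cell body minimum. The other 4 had cell body means of 4.30 to 13.9, under the pseudocount of 16, so no large fall could be measured there. In HT1080, below the minimum, cell bodies averaged 13.9 and pseudopods 3.27 (-0.63, 0.0458). Between MDA435 and U251, a comparison added after the values were seen, the change differed by -1.07 ± 0.32, which did not pass (adjusted p = 0.251). In that comparison 0 of the 7 probe sets bright enough in both lines were called, against 0.27% of all probe sets. In MDA435 the pseudopod array with 211.1 was replicate 3, the one with little CDH1; among cell bodies, replicate 1, also with little CDH1, was the brightest at 783.5.

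NCAM1, the homophilic adhesion molecule, reached the minimum in U87, U251 and HT1080 with 2 of its 7 probe sets. On the probe set with the larger changes, HT1080 cell bodies read 495.6, 552.1 and 268.1 and pseudopods 103.8, 107.3 and 93.3. U251 cell bodies read 482.4, 468.6 and 489.9 and pseudopods 194.4, 165.8 and 186.1. U87 cell bodies read 198.3, 165.4 and 174.0 and pseudopods 58.7, 29.0 and 101.2. The fractions did not overlap in any of these 3 lines, and on this probe set NCAM1 fell by 1.89 ± 0.24 in HT1080 (adjusted p = 1.28e-06), by 1.41 ± 0.24 in U87 (8.2e-05) and by 1.33 ± 0.24 in U251 (0.000296). The brightest probe set over all arrays fell by 1.67 ± 0.23 in HT1080 (adjusted p = 3.14e-06), 0.96 ± 0.23 in U251 (0.00366) and 0.86 ± 0.23 in U87 (0.0062). Its U87 pseudopods read 61.4, 69.3 and 127.8 against cell bodies of 205.4, 164.6 and 125.9, so replicate 3 of the pseudopods lay above the lowest cell body array. Without that array the U87 change was -1.13 (adjusted p = 0.000383), whereas the call was lost without U87 pseudopod replicate 1 (0.0593), pseudopod replicate 2 (0.0501) or cell body replicate 1 (0.0550). The F test among lines passed for the former probe set (adjusted p = 0.000146) and not for the brightest (0.0572). On the former, cell bodies of DU145, MDA231 and MDA435 had means between 10.8 and 26.7, too near the pseudocount of 16 for a large fall to be measured, so that the test also reads which lines had the transcript. Over all tested probe sets 1.23% passed that test. In DU145, MDA231 and MDA435 the 18 arrays read 29.4 to 75.1 on the brightest probe set.

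CHI3L1, the secreted chitinase-like glycoprotein, was bright in U87 and HT1080. On the brightest probe set, U87 cell bodies read 3745.7, 1586.4 and 1957.3 and pseudopods 412.8, 255.5 and 2387.5. HT1080 cell bodies read 142.4, 563.3 and 613.7 and pseudopods 145.3, 126.8 and 31.5. The fractions overlapped in both lines, through pseudopod replicate 3 in U87 and cell body replicate 1 in HT1080. CHI3L1 fell by 1.91 ± 0.52 in HT1080 (adjusted p = 0.00701) and by 1.80 ± 0.52 in U87 (0.0116), and the second probe set, also called, fell by 1.73 ± 0.56 and 2.05 ± 0.56 (0.0246 and 0.00862). Without U87 pseudopod replicate 3 the U87 change on the brightest probe set was -2.74 (adjusted p = 1.85e-05). The U87 call was lost without U87 pseudopod replicate 1 (0.0792), pseudopod replicate 2 (0.161) or cell body replicate 1 (0.0888). The HT1080 call was lost without HT1080 pseudopod replicate 3 (0.0862), cell body replicate 2 (0.0538) or cell body replicate 3 (0.0555). On the second probe set the same arrays ended the calls, with adjusted p-values of 0.0612, 0.128 and 0.0811 in U87 and 0.151, 0.116 and 0.165 in HT1080, as did HT1080 pseudopod replicate 2 (0.0790). With a pseudocount of 1 the U87 adjusted p-values were 0.0828 and 0.0515, and with 64 that of the second probe set in HT1080 was 0.0649. The mesenchymal marker sum was also lower in the pseudopods of both lines, at 3043.5 to 9353.9 against 11162.8 to 15935.4 in U87 and 1870.1 to 3012.4 against 5046.6 to 6250.5 in HT1080; its part in the result was not tested. U251 had 44.5, 82.6 and 46.6 in cell bodies and 18.4, 13.3 and 15.2 in pseudopods, below the minimum, and DU145, MDA231 and MDA435 read 0.3 to 11.8.

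SLC1A3, the astrocyte glutamate transporter, had 1 tested probe set, and its other one was too dim. U87 cell bodies read 661.4, 517.2 and 702.5 and pseudopods 178.5, 69.5 and 317.6. U251 cell bodies read 569.3, 297.3 and 593.9 and pseudopods 149.8, 176.5 and 173.0. HT1080 cell bodies read 173.0, 264.8 and 158.3 and pseudopods 56.0, 62.0 and 54.1. The fractions did not overlap in these 3 lines, but only U87 passed the test, with a change of -1.85 ± 0.59 (adjusted p = 0.0246). The change was -1.52 ± 0.59 in HT1080 (adjusted p = 0.0649) and -1.40 ± 0.59 in U251 (0.118). The error is shared by all groups and takes in DU145, where cell bodies read 57.6, 41.0 and 291.4 and pseudopods 153.6, 24.5 and 24.7. Without DU145 pseudopod replicate 1 and cell body replicate 3, both HT1080 (0.0217) and U251 (0.0482) passed, and without the 7 arrays the adjusted p-values were 0.000203 and 0.000783. HT1080 also passed without MDA231 pseudopod replicate 3 alone (0.0481), DU145 pseudopod replicate 1 alone (0.0447) or DU145 cell body replicate 3 alone (0.0401). The U87 call was lost without U87 pseudopod replicate 1 (0.0547), pseudopod replicate 2 (0.200), cell body replicate 1 (0.0712) or cell body replicate 3 (0.0704). With a pseudocount of 1 its adjusted p was 0.0836. HT1080 (0.0482) and U251 (0.0396) passed with a pseudocount of 64, and HT1080 passed without the 4 MDA231 and MDA435 arrays apart by CDH1 (0.0272). With array weights the adjusted p-values were 0.00273 in HT1080 and 0.0158 in U251.

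GPM6A, the neurite proteolipid, was the brightest of the 10 genes in any group, and it reached the minimum in U251 alone. On the brightest probe set, U251 cell bodies read 3822.2, 3670.5 and 4307.7 and pseudopods 2870.5, 2154.7 and 2236.8, without overlap. GPM6A fell by 0.71 ± 0.19 on this probe set (adjusted p = 0.00933) and by 0.70 ± 0.23 on the second (0.0368). The third probe set read 393.6, 343.9 and 489.6 in cell bodies and 292.8, 275.9 and 285.2 in pseudopods, a change of -0.49 ± 0.32 that did not pass (0.36; with a pseudocount of 64, 0.0354). Both calls were lost without U251 pseudopod replicate 2 (0.0563 and 0.148) or with a pseudocount of 1 (0.237 and 0.398). The call of the second probe set was also lost without any 1 of U251 pseudopod replicate 3 (0.105) and U251 cell body replicates 1 (0.0828), 2 (0.0637) and 3 (0.113), and with equal array medians (0.104), with quantile normalization (0.0536) and with no filter (0.0512). The 30 arrays of the other lines read 1.8 to 46.8 on the brightest probe set.

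CNTN1, the anchored contactin that PTPRZ1 binds, was bright in U251. On the brightest probe set, U251 cell bodies read 1017.3, 1098.1 and 868.0 and pseudopods 1330.4, 853.5 and 1161.0, and the fractions overlapped. The change was 0.15 ± 0.31 (adjusted p = 0.836), and it was 0.36 ± 0.20 on the second probe set (0.256) and 0.45 ± 0.28 on the third (0.34). With a pseudocount of 64 the last 2 passed as higher (0.0178 and 0.0440). In DU145, cell bodies read 136.6, 114.7 and 90.2 and pseudopods 31.8, 68.6 and 64.3, without overlap, and the change of -0.90 ± 0.31 did not pass (0.0805). It passed without the 7 arrays (-0.78, 0.0273), with a pseudocount of 64 (0.0446), with array weights (0.00199), without MDA231 pseudopod replicate 3 (0.0249) or without MDA231 cell body replicate 2 (0.0390), the 2 MDA231 arrays with much CDH1. The ligand and its receptor were thus both present in U251, where PTPRZ1 fell and CNTN1 did not pass the test; the difference between the genes was not tested.

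SOX2, the stem cell factor, was bright in U251 and at a lower level in MDA435. U251 cell bodies read 1773.4, 1754.0 and 2111.0 and pseudopods 1948.6, 1714.6 and 1633.9, with a change of -0.09 ± 0.23 (adjusted p = 0.873). MDA435 cell bodies read 324.0, 254.8 and 207.9 and pseudopods 107.8, 234.5 and 357.8, with a change of -0.28 ± 0.23 (0.533). The fractions overlapped in both lines on this, the brightest probe set. On the second the U251 cell bodies read 862.0, 964.3 and 959.6 and the pseudopods 773.0, 760.8 and 732.5, which did not overlap, and the change of -0.29 ± 0.23 did not pass (0.464). SOX2 lies within an intron of the longer transcript SOX2-OT, and which of the transcripts the probes read was not tested. The 24 arrays of the other 4 lines read 4.8 to 19.2 on the brightest probe set.

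SOX9, the glial and cartilage factor, had a cell body mean above 100 in all 6 lines on the brighter probe set. In MDA435 this rested on the arrays with much CDH1, and in DU145 on cell body replicate 3 (93.7, 81.7 and 245.9). On the other probe set the cell body means of U87 and DU145 were 45.0 and 42.2. Its cell body means on the brighter probe set were 987.6 ± 115 in U251, 901.6 ± 172 in MDA231, 749.3 ± 33 in HT1080, 409.7 ± 462 in MDA435, 166.3 ± 58.4 in U87 and 140.4 ± 91.5 in DU145 (SD, n = 3). The large error of MDA435 came from arrays that read 30.6, 274.0 and 924.4 in cell bodies and 1417.5, 446.7 and 30.7 in pseudopods, in the same order as CDH1. DU145 pseudopod replicate 1 and cell body replicate 3 read 369.5 and 245.9, and its other 4 arrays 81.7 to 101.4. The 10 combinations of probe set and line had changes between -0.00 and 0.43 and none passed, with a shared SE of 0.78 on the brighter probe set, into which the MDA435 spread enters. Without the 7 arrays the 6 changes on that probe set were still not called, and in HT1080, where cell bodies read 761.0, 774.8 and 712.1 and pseudopods 707.7, 856.2 and 779.0, the change was 0.06 (adjusted p = 0.935).

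ID4, the differentiation inhibitor, had cell body means on the brightest probe set of 432.0 ± 193 in MDA435, 349.8 ± 43.9 in U87, 277.9 ± 139 in MDA231 and 151.8 ± 16.6 in U251 (SD, n = 3). HT1080 and DU145 lay at 24.4 ± 5.9 and 5.53 ± 3.1. U87 cell bodies read 339.8, 311.8 and 397.9 and pseudopods 271.8, 337.8 and 348.7, and U251 cell bodies read 152.8, 167.9 and 134.7 and pseudopods 147.1, 164.6 and 149.0. The fractions overlapped in all 4 lines above the minimum, and the changes of -0.13, 0.02, 0.13 and 0.01 in U87, U251, MDA231 and MDA435 had a shared SE of 0.37. In MDA435, ID4 read 608.1, 461.4 and 226.5 in cell bodies and 229.6, 388.0 and 720.2 in pseudopods, the reverse of the order of CDH1 and SOX9. In MDA231 the 2 arrays with much CDH1 had the lowest ID4, 121.8 and 131.0, against 322.8 to 484.0 in the other 4.

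MAP2, the dendrite microtubule protein, reached the minimum in MDA435 and U251. U251 cell bodies read 192.0, 203.8 and 184.6 and pseudopods 197.7, 264.4 and 207.1, a change of 0.18 ± 0.29. MDA435 cell bodies read 655.4, 409.6 and 303.4 and pseudopods 271.8, 340.8 and 593.9, a change of -0.18 ± 0.29. The fractions overlapped in both lines and neither change passed. As for ID4, the MDA435 arrays with little CDH1 were the brightest in each fraction.

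**Figure D2:**
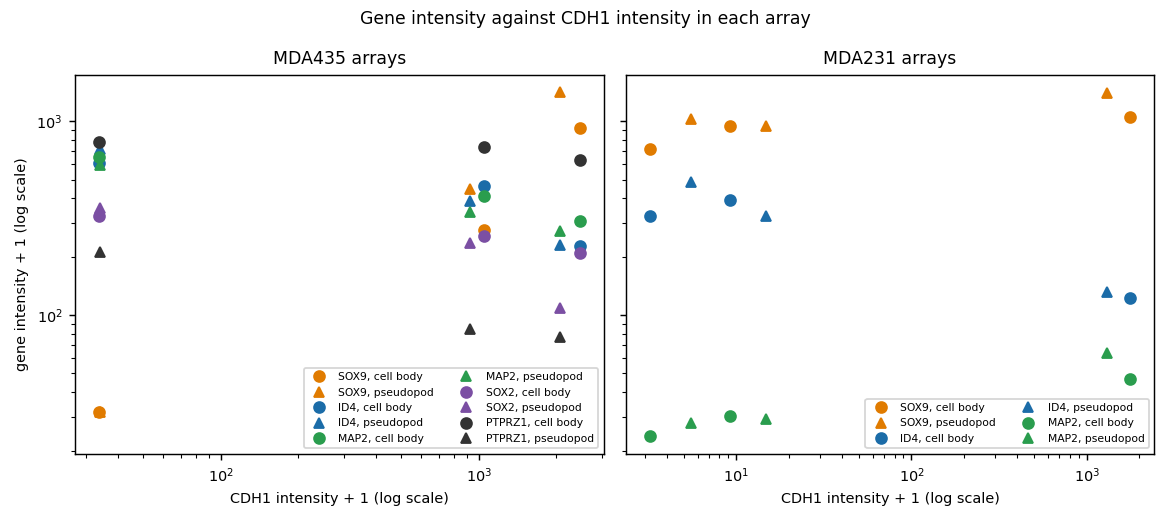
Intensity of SOX9, ID4, MAP2 and, for MDA435, SOX2 and PTPRZ1 in each array (circles cell bodies, triangles pseudopods) against the CDH1 intensity of the same array, both plus 1 on log axes. In MDA435 SOX9 is lowest, at 30.6 and 30.7 (overlapping symbols), in the 2 arrays with CDH1 near 33, where ID4 and MAP2 are highest in their fractions; in MDA231 ID4 is lowest in the 2 arrays with CDH1 of 1777.5 and 1299.2.

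Among cell bodies, 20 of the 33 probe sets, of which 28 were tested, were higher in the 2 glioblastoma lines than in the mean of the other 4 lines. Over all tested probe sets 19.4% were higher. Of the 33, 1 was lower, against 28.7%. Several probe sets read 1 gene and the genes were chosen with earlier results known, so these shares are a description. Both glioblastoma lines were grown in DMEM and, of the other 4, only HT1080 was, so medium and origin cannot be told apart. Of the brightest probe set of each gene, 8 of 10 were higher, and SOX9 (0.11 ± 0.48, adjusted p = 0.869) and MAP2 (0.25 ± 0.18, 0.265) did not pass. The widest differences were 3.39 ± 0.32 for CHI3L1 and 3.33 ± 0.11 for GPM6A. On the brightest probe set, only SLC1A3 had both glioblastoma lines above all of the other 4 by cell body mean. ID4 was highest in MDA435 (432) and NCAM1 in HT1080 (401), and CHI3L1 was higher in HT1080 (439.8) than in U251 (57.9). The averages also hide a wide split between U251 and U87, which differed in 22 of the 33 probe sets. U251 was higher in 15, against 17.9% of all tested probe sets, and U87 in 7, against 15.9%.

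On the brightest probe sets, U251 was higher than U87 in GPM6A (log2 difference 6.88 ± 0.19), SOX2 (6.01 ± 0.23), CNTN1 (5.54 ± 0.31) and PTPRZ1 (5.39 ± 0.23). Their U87 means of 17.6, 13.6, 5.60 and 13.9 are near or under the pseudocount of 16, which holds these differences down, so their order has no meaning and no fold is given. Smaller differences in the same direction were 5.69-fold for SOX9 (adjusted p = 0.0126), 3.53-fold for MAP2 and 2.07-fold for NCAM1. U87 exceeded U251 by 31.7-fold for CHI3L1 and 2.18-fold for ID4 (0.0189), and SLC1A3 did not pass (U251 minus U87 -0.40 ± 0.59, 0.663).

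**Figure D3:**
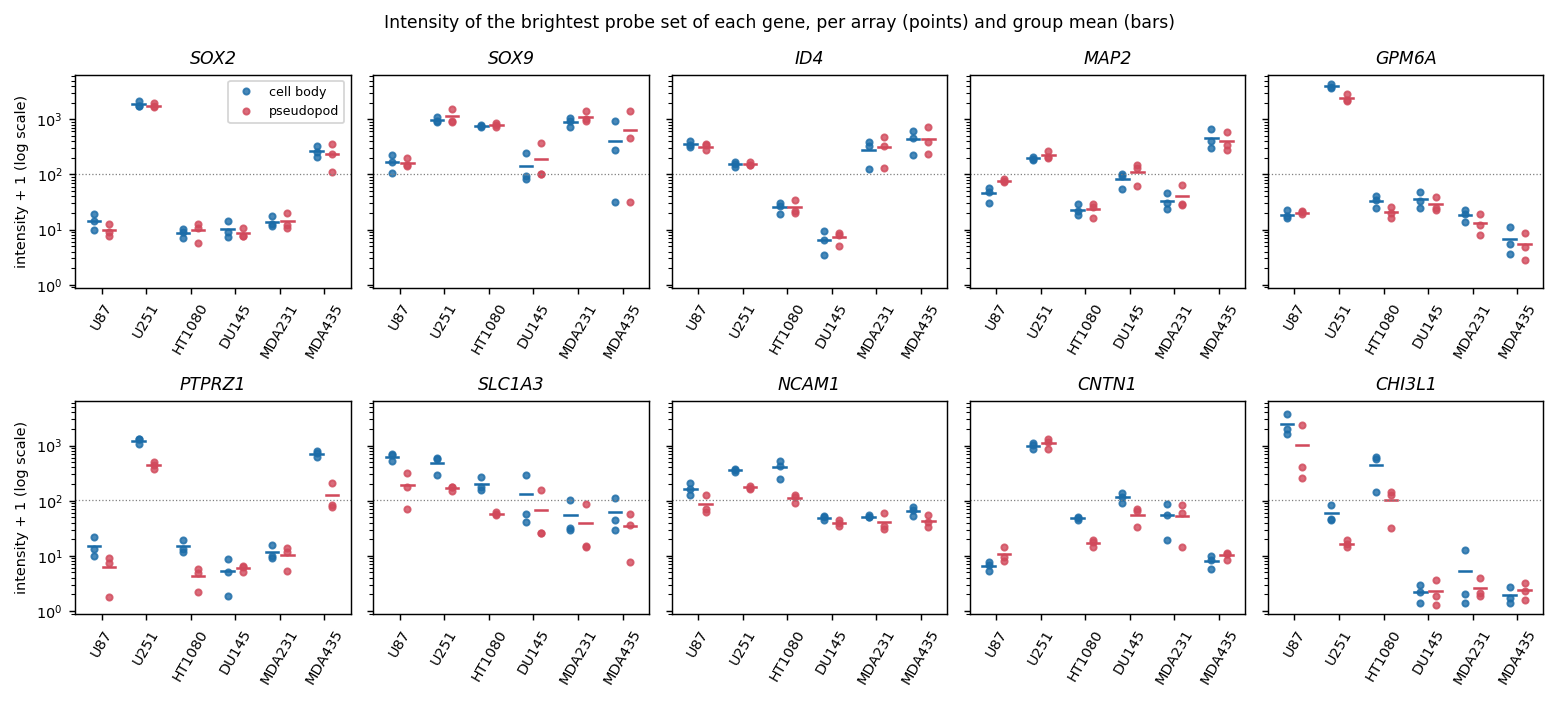
Intensity plus 1, on a log axis, of the brightest probe set of each gene in every array (points) of the cell body and pseudopod fractions of the 6 lines, with group means as bars and a dotted line at the minimum of 100. GPM6A, SOX2, CNTN1 and PTPRZ1 are bright in U251 and near background in U87, and CHI3L1 is brightest in U87. SOX9 has a cell body mean above the line in all 6 lines, with 2 MDA435 arrays at 30.6 and 30.7. In DU145 its mean is above the line only through cell body replicate 3 (245.9).

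The order of cell body levels was not always separated by the arrays. U251 came first without overlap with the next line for SOX2, GPM6A, PTPRZ1 and CNTN1, and MDA435 was next for SOX2 and PTPRZ1. For SOX9, no neighbouring lines in the order were separated. For SLC1A3, U87 (mean 627.0) and U251 (486.8) overlapped and both lay above HT1080 (198.7). For NCAM1, HT1080 (401.0) and U251 (353.9) overlapped and both lay above U87 (165.3), which lay above the rest. CHI3L1 ran from U87 (2429.8) to HT1080 (439.8) to U251 (57.9) without overlap. By mean, SLC1A3, NCAM1 and CHI3L1 were thus highest in U87, U251 and HT1080, the lines grown in DMEM. Medium and origin cannot be told apart there. MAP2 was highest in MDA435 (456.1) and next in U251 (193.5), and ID4 overlapped from MDA435 through U87 and MDA231 to U251. Some probe sets lay close to the minimum: the second ID4 probe set in U87 (105.3) and the second SOX2 probe set in MDA435 (112.6) were inside, and the second ID4 probe set in MDA435 (94.7) and the brighter MAP2 probe set in DU145 (82.4) outside.

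Of 96 genes of related pathways, 76 were tested on the pseudopod change averaged over the 6 lines, of which 24 were lower, 11 higher and 41 not called, with a median of -0.00. Over all 15431 genes tested, 20.7% were lower and 29.4% higher, with a median change of 0.05. In this average 5 of the 10 glial and neural genes were lower on their brightest probe set and 0 higher: SLC1A3 (-1.11), PTPRZ1 (-0.85), CHI3L1 (-0.84), NCAM1 (-0.74) and GPM6A (-0.27). The average takes in lines where a transcript was near background and the pseudocount holds its change down. PTPRZ1 had cell body means of 4.30 to 13.9 in 4 lines, and GPM6A of 5.67 to 34.2 outside U251. The order of these averages therefore has no meaning. Of the genes not tested, 18 were too dim.

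The part that was lower differed between the lists of partners and relatives of the membrane genes, against 20.7% of all genes tested. These lists were chosen with earlier results of these data known, so they are no independent check of the grouping by product. Of 9 tested PTPRZ1 ligands and contactin partners 7 were lower and 0 higher, with a median of -0.61: the paralogous phosphatase PTPRG fell by 1.59 ± 0.10 (adjusted p = 4.52e-13), the matrix ligand TNC by 1.36 and the contactin-associated CNTNAP1 by 1.01. The PTPRZ1 ligand PTN, pleiotrophin, fell by 0.76, and it was brightest in U251 (1776) and U87 (1225). All 5 tested neural adhesion genes were lower, among them CDH2, the neural cadherin, by 1.17 ± 0.12 (1.28e-09) and ALCAM by 1.10. CDH2 was near background in DU145 (2.83) and MDA231 (6.97), where its changes did not pass. Of 5 tested glutamate transporter genes 3 were lower: SLC1A5, a neutral amino acid carrier of that family, by 1.31 ± 0.10 (1.5e-11) and within each of the 6 lines, SLC1A1 by 1.31 and SLC1A4 by 1.21. Of 2 chitinase-like genes CHID1 was lower (-0.99), and of 4 lecticans, the proteoglycans of brain matrix, VCAN was lower (-1.52). GPM6B, the paralogue of GPM6A, fell by 0.68 and had cell body means of 3474 in U251 and 2472 in MDA435; with CSPG4 (-0.97) and PDGFRA (-0.47) it made 3 lower of 6 tested oligodendroglial and proteolipid genes, and CNP was higher (0.35).

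In the lists of SOX, ID, progenitor, microtubule-associated and neuronal genes, only NES was called lower. Of 2 tested SOXB and SOXE factors 0 were called: SOX3 was bright in U251 alone (1630) and SOX10 in MDA435 alone (1485). Of 3 ID genes 0 were called, with changes from 0.32 to 0.46. Of 13 tested progenitor genes 3 were higher, NFIB (0.39), ZEB1 (0.37) and NFIX (0.26), and the filament NES was lower (-0.70). FABP7, the radial glia fatty acid carrier, had cell body means of 4003 in U251 and 2056 in MDA435 and was not called (0.08, adjusted p = 0.476). Of 8 tested microtubule-associated genes 3 were higher and 0 lower, MAP1S (0.48), STMN1 (0.40) and MAP4 (0.27). Of 9 tested neuronal genes 3 were higher and 0 lower: TUBB3, the neuronal tubulin (0.40), GAP43 (0.24) and UCHL1 (0.14). Over all genes tested, 29.4% were higher and 20.7% lower in this average. With so few genes in a list, the counts of higher genes were not clearly apart from that share. The astroglial list was not grouped by product. Of its 11 tested genes GJA1, the gap junction connexin (-1.13), the secreted CLU (-1.26) and APOE (-0.35) were lower and GLUL, glutamine synthetase (0.37), was higher.

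**Figure D4:**
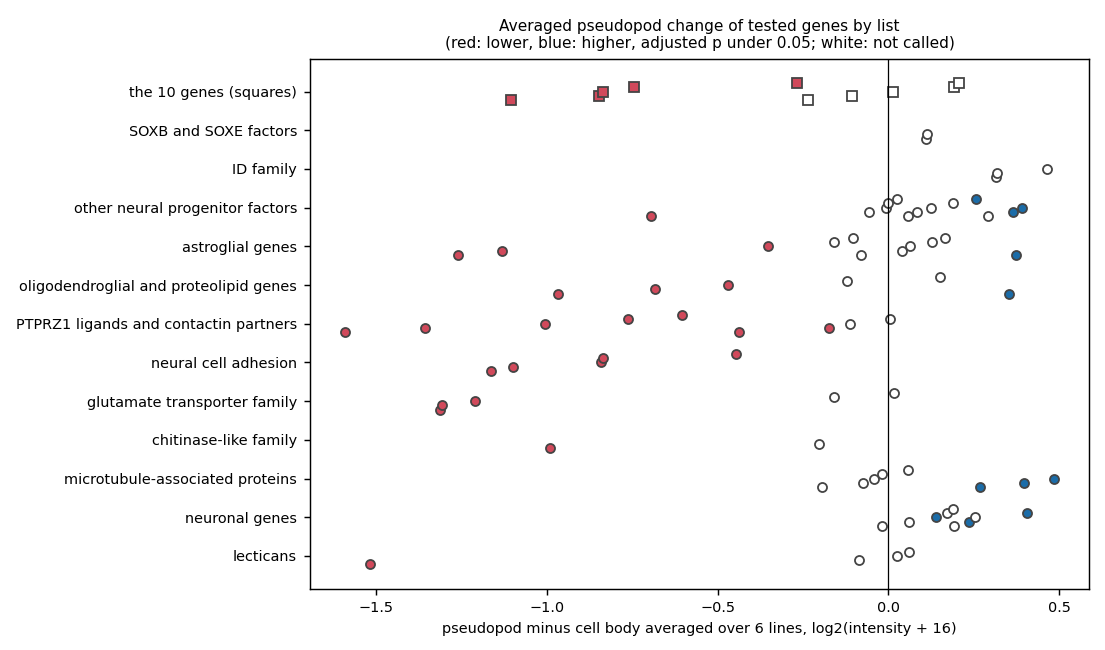
Pseudopod minus cell body change averaged over the 6 lines, in log2(intensity + 16), for the 10 genes (squares) and the tested genes of 12 lists (circles); red passed as lower, blue as higher, and white was not called. All 5 tested neural adhesion genes and 7 of 9 PTPRZ1 ligands and contactin partners are red, and the neuronal and microtubule-associated lists hold blue and white points with 0 red. Over all genes tested, 20.7% passed as lower and 29.4% as higher.

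The genes whose pattern over the 12 group means was most like that of a member were named from 11159 candidates, as a description whose points share 6 lines. For GPM6A these were SOX21-AS1 (Pearson r = 0.994), SLCO5A1 (0.992) and CD34 (0.991), and for SOX2 MUC15 (0.982), THY1 (0.978) and COL9A3 (0.977). For PTPRZ1 they were EPHA3 (0.990), MUC15 (0.984) and LINGO2 (0.980), and for CNTN1 ZDHHC4 (0.980), GABBR2 (0.977) and SDK1 (0.964). For CHI3L1 they were FBN2 (0.979), CHRNA9 (0.974) and SIGLEC15 (0.971), and for NCAM1 INHBE (0.956), KCNJ2 (0.952) and CALHM5 (0.944). ID4 was most like PPM1K (0.977), PRR16 (0.966) and SAP30 (0.957), and SOX9 like TLR4 (0.971), KLHL4 (0.964) and WT1 (0.963). SLC1A3 was most like PHTF1 (0.952), COL7A1 (0.941) and OXER1 (0.940), and MAP2 like CTPS2 (0.960), LINC02381 (0.949) and LZTS1 (0.941).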

How the data were processed

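The deposited values are linear intensity values of 36 arrays, 0 to 9883.2, with array medians of 18.2 to 30.6 and a mean after trimming 2% at each end of 149.18 to 149.59. Per the submitters' processing notes the authors used RMA and Partek; their versions, and the program that made these linear intensity values, are not given in the sources used here. The platform annotation gives 1 symbol for 41074 of 54593 probe sets, several for 1798 and none for 11721; 41020 symbols were matched through Entrez numbers to RefSeq. No pair of arrays held identical values (highest r 0.991), and the number of arrays, 3 per group, limits the precision.

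A probe set was tested if at least 1 of its group means was no lower than 24.4, the overall median intensity, which left 35240. limma 3.58.1 in R 4.3.3 was fitted to log2(intensity + 16) as 12 group means with 24 residual degrees of freedom, and p-values were adjusted over all tested probe sets. For the pathway lists, 1 probe set per gene was counted, the one brightest on average. The code was tested on simulated data. Figures used Python 3.11.15 and matplotlib 3.10.9.

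The genes and lists were chosen with earlier results of these data known. All 10 genes were named; a statement on a single gene uses its brightest probe set by the average of the 36 arrays. Of each list, up to 3 genes with the highest cell body mean and up to 3 called genes with the largest averaged change could be named. GFAP, AQP4, ALDOC, S100B, ALDH1L1, APOE and NFIX are named beside them, chosen after their values were seen. For likeness, the 3 genes with the highest Pearson r were named. Alternatives were the pseudocount, the scaling, the filter, 1 probe set per gene, shared probe sets, array weights, a replicate block and left-out arrays. A planned description of protein features was not made, because protein sequences were not used here.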

Additional observations from a re-analysis of the deposited data

Results flagged for a closer look

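The pseudopod change of PTPRZ1 differed between the 6 lines (limma moderated F, adjusted p = 5.9e-05), with changes of -2.52 in MDA435 and -1.45 in U251. The other 4 lines had cell body means of 4.30 to 13.9, under the pseudocount of 16, where no large fall could be measured. Between MDA435 and U251 the difference of -1.07 ± 0.32 did not pass (adjusted p = 0.251).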

How the results depend on the processing

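Of the 44 combinations of probe set and line, no call changed direction under any alternative, and 15 were called lower. That number was 9 with a pseudocount of 1, 9 with 1 probe set per gene (where fewer combinations remain), 18 with a pseudocount of 64, 12 without probe sets marked as shared, 17 without the 4 MDA231 and MDA435 arrays apart by epithelial genes, and 11 to 17 without each array in turn. With a pseudocount of 64, 2 combinations were called higher in place of 0; the other alternatives gave 0. The count of probe sets whose change differs between lines, 2, was 1 with a pseudocount of 1, 4 with a pseudocount of 64, 1 with 1 probe set per gene, 8 with array weights, 5 without the 7 arrays and 2 to 5 without each array in turn (5 without U87 pseudopod replicate 3 and 4 without HT1080 cell body replicate 3). Except where fewer probe sets were fitted, the cause was not tested. With 1 probe set per gene, 8 probe sets in place of 20 were higher in glioblastoma cell bodies and 9 in place of 22 differed between U251 and U87; without shared probe sets the latter was 14. Replicate numbers did not pair the fractions: 18 correlations of same-numbered deviations ran from -0.71 to 0.65 with a median of -0.13, and 4 exceeded 0.1. Between differently numbered arrays they ran from -0.61 to 0.764. The highest were MDA231 pseudopod 3 with cell body 2 (0.764) and MDA435 pseudopod 3 with cell body 1 (0.734) and pseudopod 1 with cell body 3 (0.71). A replicate block joins arrays by number, so it did not join these pairs, and whether they shared a culture was not tested. With the replicate block, 12 combinations were lower: SLC1A3 in U87 (adjusted p = 0.0643), the second CHI3L1 probe set in HT1080 (0.0667) and the second GPM6A probe set in U251 (0.0575) no longer passed, and no other combination changed its call. The lower pathway genes numbered 22 to 28 under the alternatives, against 24. Low intensity limits probe sets near 16 units, where the pseudocount sets most of the value.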
